A study of Homo sapiens with 15 samples.

Results

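The RAS-RAF-MEK-ERK cascade was followed through 7 of its core genes, which were chosen by symbol and matched to the Ensembl gene IDs of the count table, where they make up 7 of 61552 listed genes. They are the RAS GTPases HRAS and NRAS, the RAF kinases ARAF and BRAF, the MEK kinases MAP2K1 and MAP2K2, and MAPK3, which encodes ERK1. Other core genes of the cascade are not reported here, while related RAS-family GTPases and parallel MAP kinases are followed as lists further below. RNA of MDA-MB-468, an established human breast cancer cell line of basal type with abundant EGFR, was sequenced in 15 libraries, 3 in each of 5 groups. The study set the kinase activity of EGFR, the epidermal growth factor receptor, apart from its presence in the nucleus.

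Of these groups, 3 came from a drug experiment. Its cells were starved of serum for 12 h and then received 10 ng/mL EGF for 12 h, either alone (EGF), with 10 μM of cSNX1.3, a peptide that keeps EGFR from binding Sorting Nexin 1 and so lowers its presence in the nucleus (cSNX), or with 15 μM of erlotinib, an inhibitor of the EGFR tyrosine kinase (ERL). The other groups came from MDA-MB-468 cells in which endogenous EGFR was knocked down by an IPTG-inducible, lentiviral short hairpin RNA with puromycin resistance and kept in IPTG throughout. These cells were transfected with an EGFR-GFP fusion that was either wildtype (shEGFR-WT) or carried acidic residues in place of basic ones in its nuclear localization sequence (shEGFR-NLS), and were treated with EGF at a dose and for a time that are not given in the sources used here. Both lines therefore carry the hairpin, the selection marker and an introduced receptor, and whether each line is a clone or a pool is not stated. Nothing in the labels says that the replicates were separate cultures, so p-values measure the spread between these libraries, which may be technical.

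In this pathway a receptor such as EGFR recruits adaptors and exchange factors that load RAS with GTP at the membrane. RAS in its GTP-bound form activates RAF, RAF phosphorylates MEK, and MEK phosphorylates ERK, which acts on cytoplasmic and nuclear substrates. Signal flow through the cascade is set by phosphorylation and by GTP loading, so the level of a transcript says nothing by itself about the activity of the kinase it encodes. The cascade is best known for coupling growth factors to proliferation, and its output is held back by phosphatases and other inhibitors that ERK itself induces.

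Within each tier the genes are paralogues, so the counts of one could in principle take up reads of the other. The coding sequences in GENCODE 44 (build GRCh38) were therefore compared, and the longest identical run of the RAS and RAF pairs is shown in capitals. Untranslated sequence and matches with mismatches were not compared. The RAS run crosses an exon boundary and lies at coding positions 286 to 299 of both genes, and the RAF run at 1147 to 1167 of ARAF and 1588 to 1608 of BRAF.
HRAS and NRAS: TACAGGGAGCAGAT
ARAF and BRAF: CAGTGGTGTGAGGGCTCCAGC
These runs are 14 and 21 bases long. The RAF run occupies chrX:47568788-47568808 (plus strand) and chr7:140776998-140777018 (minus strand), in each case within a single coding exon. Of the 1149 stretches of 31 bases in the MAP2K1 coding sequence, 8 were also found in MAP2K2, and for the RAS and RAF pairs the number was 0.

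Of the 3 pairs of paralogues, MAP2K1 and MAP2K2 had the largest difference in their ratio between ERL and EGF, so the sequences just upstream of their starts are shown, from RefSeq (GRCh38.p14) and ended before the first annotated base of the gene. The windows are chr15:66386662-66386836 on the plus strand for MAP2K1 and chr19:4124123-4124372 on the minus strand for MAP2K2, 175 and 250 bases with a GC content of 69.7% and 74.0%. Capitals mark 3 motifs found on either strand. They are the GC box, spelled GGGCGG, the box named CCAAT after its letters, and TGACG. The last of these lies within TGACGTCA, the cyclic AMP response element.
MAP2K1: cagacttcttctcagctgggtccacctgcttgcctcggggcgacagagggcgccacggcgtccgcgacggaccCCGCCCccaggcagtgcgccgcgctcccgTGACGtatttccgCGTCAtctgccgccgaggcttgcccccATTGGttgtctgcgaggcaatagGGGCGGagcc
MAP2K2: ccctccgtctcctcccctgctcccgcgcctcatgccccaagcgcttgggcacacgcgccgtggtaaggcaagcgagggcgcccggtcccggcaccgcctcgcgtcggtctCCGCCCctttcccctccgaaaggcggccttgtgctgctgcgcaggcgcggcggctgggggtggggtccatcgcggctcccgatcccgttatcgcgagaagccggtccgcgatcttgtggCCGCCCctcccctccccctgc
The shown stretch of MAP2K1 held 2 GC boxes, 1 CCAAT box and 2 copies of TGACG, and that of MAP2K2 held 2 GC boxes and none of the other marked letters. In the full RefSeq windows, which run on past the start, the number of GC boxes was 3 for MAP2K1, 2 for MAP2K2, 5 for HRAS, 3 for NRAS and 8 for MAPK3, and no match was found for ARAF and BRAF. In the same full windows CCAAT had 1 match for HRAS, 1 for MAP2K1, 2 for ARAF and 2 for BRAF. TGACG had 2 matches for MAP2K1 and 1 each for MAP2K2, ARAF and BRAF. GC boxes occurred in 45%, CCAAT in 34.6% and TGACG in 24.6% of all 35116 such windows. The letters CCGGAAG, bound by ETS factors, occurred in 10.3% of the windows and once each in those of HRAS and NRAS, whereas TGANTCA, bound by AP-1 factors, occurred in 7.71% and in no window of the 7 genes. CACGTG was found in 7.26% of all windows and in those of NRAS and MAPK3, and TGACGTCA in 1.85% and in none of the 7. These matches are descriptions of letters and not of bound sites.

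The library totals ranged from 22915676 to 35900649 counts. EGFR, the targeted gene, had 4318 to 4963 CPM with EGF (a count scaled to library size, by TMM over all 15 libraries), 5760 to 6502 with cSNX and 4564 to 4992 with ERL, against 1147 to 1450 in shEGFR-WT and 1688 to 1746 in shEGFR-NLS. The counts in the lines can hold both endogenous and introduced EGFR, and EGFR was higher in shEGFR-NLS than in shEGFR-WT by 0.37 on the log2 scale (edgeR standard error 0.09, adjusted p = 0.00367). All 7 basal markers, EGFR among them, were detected in every library, and their summed level was 11388 to 13285 CPM with EGF, 14431 to 16481 with cSNX, 7380 to 7956 with ERL, 6336 to 6926 in shEGFR-WT and 4935 to 5752 in shEGFR-NLS. The 4 luminal markers summed to 81.6 to 98.0 CPM in the drug groups, 149 to 158 in shEGFR-WT and 104 to 105 in shEGFR-NLS. The hormone receptor gene PGR was at 0 in every library. Of the 4 fibroblast markers, DCN was at 0, COL1A2 and PDGFRB stayed at or below 0.356 CPM, and COL1A1 had 8.26 to 21.3 CPM. Of the leukocyte markers, PTPRC and CD3E stayed at or below 0.216 CPM and NCAM1 reached 3.36, and the sum of the list was 2.79 to 3.71 CPM with ERL against 0.692 to 1.97 over the other groups. The drug groups and the lines were made as separate experiments, so a level set across them cannot be told apart from a difference between the experiments.

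All 7 genes passed the filter on low counts in each fit. Each library held 1109 to 6519 counts for HRAS, NRAS, ARAF, MAP2K1, MAP2K2 or MAPK3 and 396 to 899 counts for BRAF. Per kilobase of annotated exon, the level with EGF was 36.5 ± 4.85 CPM for NRAS, 24.4 ± 1.98 for HRAS, 20.5 ± 1.18 for ARAF, 17.0 ± 2.14 for MAPK3, 16.6 ± 1.26 for MAP2K1, 16.4 ± 2.09 for MAP2K2 and 0.862 ± 0.0707 for BRAF (SD, n = 3). This order depended on the length used. With the length of the canonical transcript alone, an alternative chosen after seeing the data, the level was 73.7 CPM per kilobase for MAP2K2, 55.5 for HRAS, 42.0 for MAP2K1, 36.5 for NRAS, 34.8 for MAPK3, 29.5 for ARAF and 3.13 for BRAF. BRAF had the lowest level by either length. Because these are bulk libraries, less RNA in every cell and fewer cells with the RNA cannot be told apart.

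**Figure D1:**
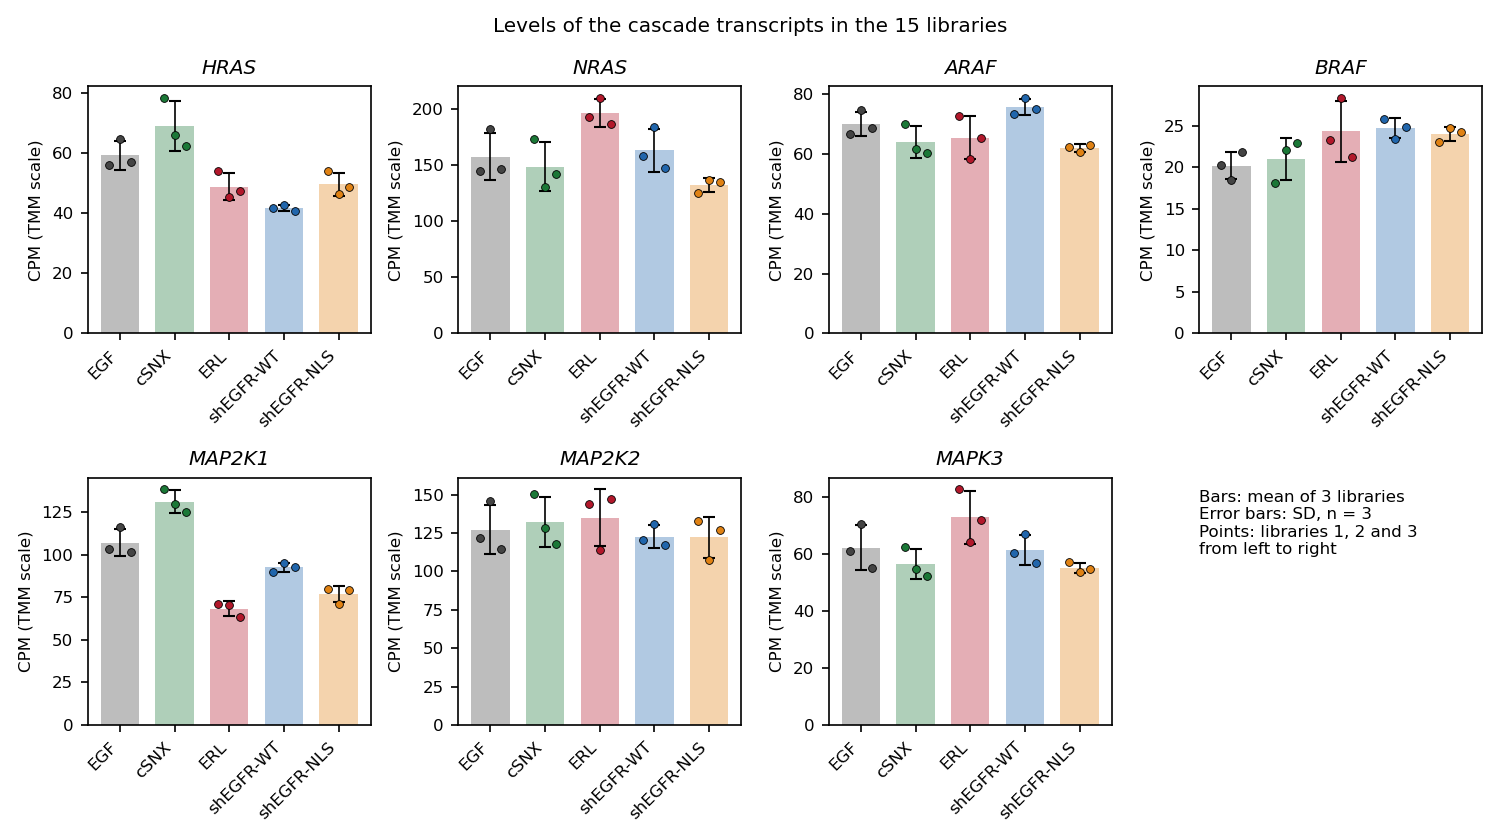
Levels of the 7 transcripts by group, in CPM on the TMM scale with the axis from 0. Bars are means, error bars the SD of 3 libraries and points the libraries 1, 2 and 3 from left to right. MAP2K1 ran from 68.2 CPM with ERL to 131 with cSNX, while the 5 means of MAP2K2 lay between 122 and 135.

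HRAS (ENSG00000174775, chromosome 11, 532242 to 537321, minus strand, 6 exons in the canonical transcript) encodes a small GTPase that switches RAF on at the membrane. Its level was 56.2, 64.9 and 56.9 CPM in the EGF libraries, 78.5, 66.1 and 62.5 with cSNX and 54.0, 45.4 and 47.3 with ERL. In the lines it was 41.9, 42.7 and 40.8 CPM in shEGFR-WT and 54.0, 46.3 and 48.7 in shEGFR-NLS. The ERL libraries thus lay below every EGF library, and the shEGFR-NLS libraries above every shEGFR-WT library, whereas the cSNX and EGF ranges overlapped. HRAS fell by 0.27 on the log2 scale with ERL (edgeR with Benjamini-Hochberg adjustment, standard error 0.10, adjusted p = 0.0427) and rose by 0.25 in shEGFR-NLS (standard error 0.08, adjusted p = 0.0156). With cSNX the log2 fold change was 0.22, with a 95% interval from 0.00 to 0.43 and an adjusted p of 0.248. The ERL call was lost without EGF replicate 1, 2 or 3 (adjusted p = 0.0543, 0.126 and 0.0660), without ERL replicate 2 or 3 (0.135 and 0.124), and with a minimum of 10 counts for each library (0.0571). The shEGFR-NLS call was lost without shEGFR-WT replicate 1 or 3 (0.0504 and 0.0646) or shEGFR-NLS replicate 1 (0.0666).

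NRAS (ENSG00000213281, chromosome 1, 114704469 to 114716771, minus strand, 7 exons) encodes the second GTPase examined here. With EGF it had 145, 182 and 146 CPM, with cSNX 174, 131 and 142, and with ERL 193, 210 and 187. It had 158, 185 and 147 CPM in shEGFR-WT and 125, 137 and 135 in shEGFR-NLS. Every ERL library was above every EGF library, every shEGFR-NLS library was below every shEGFR-WT library, and the cSNX libraries spanned the EGF range. NRAS rose by 0.33 with ERL (standard error 0.11, adjusted p = 0.0242) and fell by 0.30 in shEGFR-NLS (standard error 0.08, adjusted p = 0.00764), both on the log2 scale. Its log2 fold change with cSNX was -0.08 (95% interval -0.32 to 0.15, adjusted p = 0.759). The ERL call of NRAS did not hold without EGF replicate 1 or 3 (adjusted p = 0.107 and 0.101) or ERL replicate 2 (0.0944).

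The RAS genes thus moved in opposite directions in both comparisons in which they were called. The log2 ratio of HRAS to NRAS per kilobase averaged -0.57 with EGF, -0.27 with cSNX and -1.18 with ERL, and -1.13 in shEGFR-WT against -0.59 in shEGFR-NLS. The differences were -0.60 for ERL, 0.30 for cSNX and 0.54 for shEGFR-NLS, and in none of these did the ranges of the 3 libraries overlap. An exact permutation test of 3 against 3 libraries cannot give a two-sided p below 0.1, which is the value it gave for each (Benjamini-Hochberg adjusted p = 0.112 over 9 such ratios).

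ARAF (ENSG00000078061, chromosome X, 47561205 to 47571908, plus strand, 16 exons) encodes a RAF kinase with low basal activity. Its levels were 66.8, 74.6 and 68.7 CPM with EGF, 70.0, 61.5 and 60.4 with cSNX and 72.8, 58.4 and 65.2 with ERL, so that all 3 drug groups overlapped. The lines differed, with 73.5, 78.8 and 75.2 CPM in shEGFR-WT and 62.3, 60.6 and 63.0 in shEGFR-NLS. ARAF fell by 0.29 on the log2 scale in shEGFR-NLS (edgeR standard error 0.07, adjusted p = 0.00253), and this call held in all 7 alternatives and in all 6 fits that left out 1 library. With ERL the log2 fold change was -0.09 (95% interval -0.29 to 0.12, adjusted p = 0.489) and with cSNX -0.13 (-0.33 to 0.08, adjusted p = 0.520).

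BRAF (ENSG00000157764, chromosome 7, 140719327 to 140924929, minus strand, 18 exons) encodes the RAF kinase with the highest basal activity. It was read at 20.3, 18.5 and 21.8 CPM with EGF, 18.1, 22.0 and 22.9 with cSNX and 23.3, 28.4 and 21.3 with ERL. In shEGFR-WT it had 25.8, 23.4 and 24.9 CPM and in shEGFR-NLS 23.1, 24.7 and 24.2. The groups overlapped in each of the 3 comparisons, and BRAF was not called in any of them. Its log2 fold change was 0.27 with ERL (95% interval 0.00 to 0.55, adjusted p = 0.0942), 0.06 with cSNX (-0.21 to 0.33, adjusted p = 0.853) and -0.04 in shEGFR-NLS (-0.21 to 0.13, adjusted p = 0.720). BRAF shares 1239 exon bases with NDUFB2, a respiratory chain gene on the opposite strand with 1352 to 2359 counts per library. Counting without regard to strand cannot tell the reads of these genes apart where they overlap. Whether such reads were counted for a gene or left out is not given in the study's methods. NDUFB2 changed by -0.06 with ERL (adjusted p = 0.652) and rose by 0.25 in shEGFR-NLS (adjusted p = 0.0194), and its part in the BRAF values was not tested. The pseudogene BRAFP1 had 0 to 5 counts.

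The log2 ratio of ARAF to BRAF per kilobase averaged 4.58 with EGF, 4.39 with cSNX, 4.21 with ERL, 4.40 in shEGFR-WT and 4.15 in shEGFR-NLS. Its size depends on the exon length taken for BRAF, while differences between groups do not. The differences were -0.36 for ERL and -0.25 for shEGFR-NLS, without overlap of the libraries (exact permutation p = 0.1 each, two-sided). The cSNX difference of -0.18 lay within overlapping ranges (exact permutation p = 0.4).

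MAP2K1 (ENSG00000169032, chromosome 15, 66386837 to 66491656, plus strand, 11 exons) encodes MEK1, which phosphorylates ERK. Its level was 103, 116 and 102 CPM with EGF, 138, 130 and 125 with cSNX and 71.1, 70.5 and 63.1 with ERL. In shEGFR-WT it had 90.0, 95.2 and 92.8 CPM, and in shEGFR-NLS 80.0, 71.2 and 79.1. Ordered by mean, the groups ran cSNX, EGF, shEGFR-WT, shEGFR-NLS, ERL, and no neighbours in this order overlapped, which held for no other of the 7 genes. MAP2K1 fell by 35.8% with ERL (log2 fold change -0.64, edgeR standard error 0.09, adjusted p = 2.45e-05) and by 17.2% in shEGFR-NLS (-0.27, standard error 0.07, adjusted p = 0.00506). Both calls held in every alternative and every fit that left out 1 library. With cSNX it was higher in all 3 libraries by a log2 fold change of 0.29 (standard error 0.09, 95% interval 0.11 to 0.48), which did not pass the threshold (adjusted p = 0.0551). It passed with DESeq2 in place of edgeR (DESeq2 adjusted p = 0.0280), in a fit of all 15 libraries (0.0238) and without EGF replicate 2 (0.0403).

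MAP2K1 shares 216 exon bases with SNAPC5, on the opposite strand, which had 334 to 791 counts per library against 1723 to 3422 for MAP2K1. SNAPC5 changed by 0.28 with ERL (adjusted p = 0.0581), by -0.16 with cSNX (adjusted p = 0.496) and by -0.30 in shEGFR-NLS (adjusted p = 0.00829), all on the log2 scale. With ERL and cSNX these signs were opposite to those of MAP2K1, and in the lines the sign was the same. The sum of the basal markers, given above, was lower with ERL and in shEGFR-NLS and higher with cSNX. It includes the targeted gene EGFR, which did not follow the sum throughout. EGFR changed by 0.001 with ERL (edgeR adjusted p = 0.995), by 0.38 with cSNX (0.0622) and by 0.37 in shEGFR-NLS (0.00367). The part of SNAPC5 and of the markers in the MAP2K1 values was not tested. A long noncoding RNA with 1322 shared exon bases (ENSG00000261351) had 3 to 23 counts, and the pseudogene MAP2K1P1 had 0 to 2.

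MAP2K2 (ENSG00000126934, chromosome 19, 4090321 to 4124122, minus strand, 11 exons) encodes MEK2, which acts on the same substrate as MEK1. It had 121, 146 and 115 CPM with EGF, 150, 128 and 118 with cSNX, 144, 114 and 147 with ERL, 120, 131 and 117 in shEGFR-WT and 133, 107 and 127 in shEGFR-NLS. All neighbouring groups overlapped. The log2 fold change was 0.10 with ERL (95% interval -0.15 to 0.34), 0.06 with cSNX (-0.19 to 0.30) and -0.01 in shEGFR-NLS (-0.18 to 0.17), and the adjusted p was 0.528, 0.849 and 0.966. The intervals of the fold itself ran from 0.901 to 1.27, from 0.876 to 1.24 and from 0.884 to 1.12, so a fall as large as that of MAP2K1 with ERL lay outside them.

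The balance of the MEK transcripts was read as a ratio within each library. Per kilobase of exon, the log2 ratio of MAP2K1 to MAP2K2 was 0.03, -0.06 and 0.09 in the EGF libraries, 0.15, 0.29 and 0.35 with cSNX and -0.75, -0.42 and -0.96 with ERL. It was -0.15, -0.19 and -0.07 in shEGFR-WT and -0.47, -0.32 and -0.41 in shEGFR-NLS. The difference was -0.73 for ERL, 0.24 for cSNX and -0.26 for shEGFR-NLS, with no overlap in any of the 3 (exact permutation p = 0.1 each, two-sided, the smallest that 3 against 3 allows; adjusted p = 0.112), and none passes a threshold of 0.05. Division by length moves all of these ratios by 1 constant and leaves the differences as they are.

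**Figure D2:**
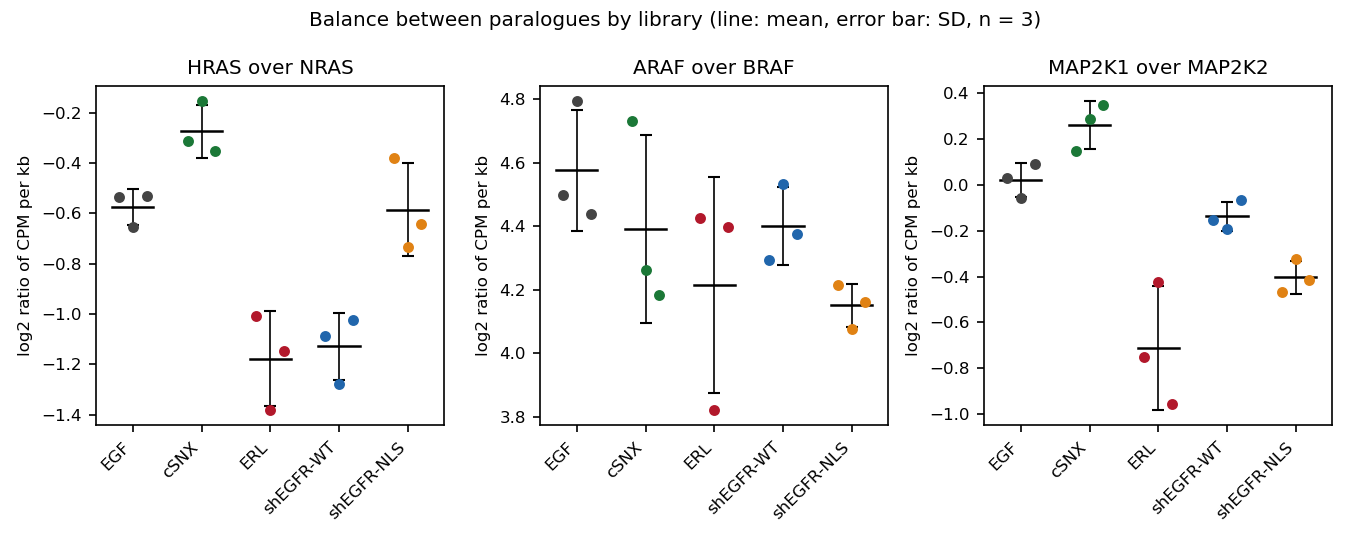
Log2 ratio of CPM per kilobase for each pair of paralogues, by library (points), with the mean and SD of 3 libraries. The HRAS to NRAS ratio was lowest with ERL (-1.18) and in shEGFR-WT (-1.13), and the MAP2K1 to MAP2K2 ratio ran from -0.71 with ERL to 0.26 with cSNX. The axes differ between panels and do not start at 0.

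MAPK3 (ENSG00000102882, chromosome 16, 30114105 to 30123506, minus strand, 9 exons) encodes ERK1, the last kinase of the cascade. It had 61.0, 70.6 and 55.1 CPM with EGF, 62.6, 54.7 and 52.5 with cSNX and 82.8, 64.1 and 72.0 with ERL. Its levels were 60.5, 67.2 and 56.7 CPM in shEGFR-WT and 57.1, 53.8 and 54.7 in shEGFR-NLS, and all 3 comparisons had overlapping libraries. None passed the threshold, with a log2 fold change of 0.24 for ERL (standard error 0.11, adjusted p = 0.0845), -0.13 for cSNX (0.11, adjusted p = 0.564) and -0.16 for shEGFR-NLS (0.08, adjusted p = 0.117). MAPK3 was called higher with ERL without EGF replicate 2 (adjusted p = 0.0274) or ERL replicate 2 (0.0354).

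**Figure D3:**
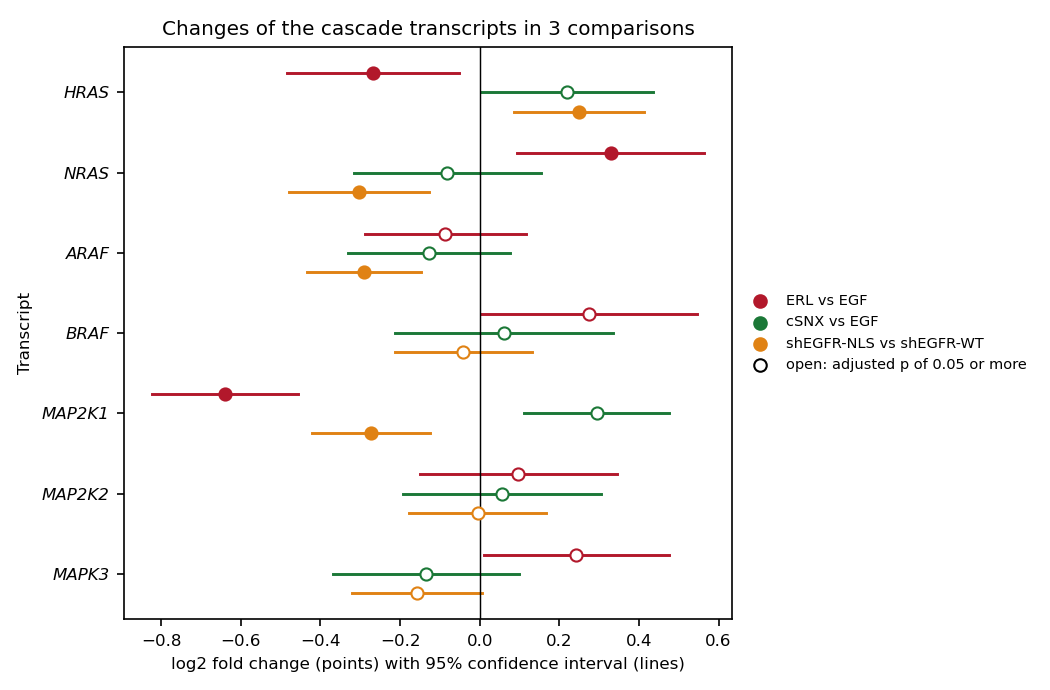
Log2 fold change (points) and 95% confidence interval (lines) of each transcript in 3 comparisons from edgeR's quasi-likelihood test, with filled points for an adjusted p under 0.05. HRAS, NRAS and MAP2K1 were called in both ERL vs EGF and shEGFR-NLS vs shEGFR-WT, and no point was filled in cSNX vs EGF.

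Counted together, 3 of the 7 genes were called in ERL vs EGF, 1 higher and 2 lower. Of all 15738 genes tested there, 44% were called, 22.8% higher and 21.2% lower, so the share of 42.9% among the 7 was close to that of all genes. Without EGF replicate 1 or EGF replicate 3 the number was 1, MAP2K1. Over the 9 fits that left out 1 library, 5661 to 7453 of all genes were called. In shEGFR-NLS vs shEGFR-WT, 4 of the 7 were called (57.1%), 1 higher and 3 lower, against 41.4% of 15805 genes, 20.4% higher and 21% lower. In cSNX vs EGF edgeR called 0 of the 7, where 6.07% of all genes were called, 3.38% higher and 2.69% lower. At an unadjusted p under 0.05 edgeR gave 2 of the 7 with cSNX (HRAS and MAP2K1), 5 with ERL and 4 in shEGFR-NLS. DESeq2 called 1 with cSNX (MAP2K1), 3 with ERL and 4 in shEGFR-NLS. The shares of all genes at these settings are not given here, so these counts have no background beside them. The median log2 fold change of the 7 was 0.10 with ERL, 0.06 with cSNX and -0.16 in shEGFR-NLS, beside 0.01, 0.00 and 0.01 over all genes tested.

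ERL and cSNX were both compared with the same EGF libraries, so their fold changes are not independent. Set against each other directly, cSNX and ERL differed in 4 of the 7 genes, where 56.1% of all genes were called. MAP2K1 was higher with cSNX by 0.93 on the log2 scale (edgeR standard error 0.09, adjusted p = 2.27e-07) and HRAS by 0.49 (adjusted p = 0.000731). NRAS was lower by 0.41 (log2 fold change -0.41, adjusted p = 0.00508) and MAPK3 by 0.38 (-0.38, adjusted p = 0.00839). The libraries of cSNX and ERL did not overlap for any of these, and all 4 calls held in every fit that left out 1 library.

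Whether the difference between the lines was unlike the changes with the drugs was asked with interaction terms, fitted to the 15 libraries together. The mutation cannot be told apart from other differences between the lines. Between the shEGFR-NLS effect and the cSNX effect, MAP2K1 was the single gene of the 7 that differed (-0.56, edgeR standard error 0.11, adjusted p = 0.000787), where 23.1% of all genes were called. It was lower in shEGFR-NLS than in its control and higher with cSNX. Between the shEGFR-NLS effect and the ERL effect, 4 of the 7 differed, beside 44.7% of all genes. These were NRAS (-0.62, adjusted p = 0.00241), HRAS (0.53, adjusted p = 0.00307), MAP2K1 (0.38, adjusted p = 0.00949) and MAPK3 (-0.39, adjusted p = 0.0349). HRAS and NRAS each moved one way with ERL and the other way in shEGFR-NLS, while MAP2K1 fell in both and fell further with ERL. The MAPK3 call did not survive the removal of a single library in 7 of 12 cases, namely without EGF replicate 1 or 3 (adjusted p = 0.0728 and 0.0984), ERL replicate 1 (0.0931), shEGFR-WT replicate 1 or 2 (0.0533 and 0.0989) and shEGFR-NLS replicate 2 or 3 (0.0615 each), and BRAF was called without ERL replicate 3 (0.0435).

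Within groups the genes tended to be high or low in the same library. In EGF replicate 2, cSNX replicate 1 and shEGFR-WT replicate 2, 6 of the 7 genes had their highest level of the group and BRAF its lowest. In shEGFR-NLS replicate 2, 5 genes had their lowest level of the group and BRAF and NRAS their highest. By depth, EGF replicate 2 was the deepest library of its group, cSNX replicate 1 the shallowest of its group, and shEGFR-WT replicate 2 lay between the others. Any part of depth in this was not tested.

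Across the 15 libraries, the log2 CPM of HRAS and MAP2K1 had a Pearson r of 0.71, NRAS and MAPK3 0.82, MAP2K2 and MAPK3 0.68, HRAS and BRAF -0.78 and MAP2K1 and MAP2K2 0.13. These values describe libraries that share 5 groups and their scaling and carry no p. Among 13396 other genes, the closest to MAP2K1 were UBAP1 (r = 0.99) and ITGA5 (0.99), to HRAS ADRM1 and CCNQ (0.98 each), and to NRAS SCAMP1 and RARS2 (0.97 each). The closest to ARAF were ARFGAP2 (0.93) and WFS1 (0.89), to BRAF MIA3 (0.89) and YPEL2 (0.88), to MAP2K2 C1orf122 (0.92) and MFSD3 (0.91), and to MAPK3 DCTN3 (0.95) and PEPD (0.94). UBAP1 is a component of the endosomal sorting machinery, ITGA5 an integrin chain, and ADRM1 a ubiquitin receptor of the proteasome.

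The genes around the cascade were followed in 8 lists written from general knowledge, except for the last, which was taken over from earlier work on these data. Upstream of RAS, 17 of the 19 adaptors and exchange factors could be tested with the drugs and 16 in the lines. With ERL 5 rose and 6 fell, among them SHC3, an adaptor of the Shc family (from 4.64 ± 0.811 to 1.43 ± 0.180 CPM, log2 fold change -1.68), and RASGRF1, an exchange factor (from 47.0 ± 1.71 to 23.0 ± 1.72 CPM, -1.03). In shEGFR-NLS 4 rose and 4 fell. RASGRP3, an exchange factor, went from 2.87 ± 0.340 to 0.830 ± 0.181 CPM (log2 fold change -1.78). SOS2, also an exchange factor, went from 30.5 ± 1.77 to 22.5 ± 2.04 CPM (-0.44). With cSNX edgeR called 0 of 17, where 6.07% of all genes were called. At an unadjusted p under 0.05 edgeR gave 3 and DESeq2 called 0, for which the shares of all genes are not given here. The called share was 64.7% with ERL and 50% in shEGFR-NLS, beside 44% and 41.4% of all genes. The median of the list was 0.07 with ERL, 0.02 with cSNX and 0.05 in shEGFR-NLS.

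Of 10 GTPase-activating proteins, which return RAS to its inactive form, 1 rose and 3 fell with ERL, 1 rose with cSNX, and 5 rose and 1 fell in shEGFR-NLS. These are 40%, 10% and 60% of the list, beside 44%, 6.07% and 41.4% of all genes, so the ERL share was near that of genes in general. RASA3 was higher with ERL (34.2 ± 1.79 CPM) and with cSNX (26.4 ± 1.49) than with EGF (19.1 ± 0.508), with log2 fold changes of 0.85 and 0.47. RASAL1 fell with ERL (from 2.49 ± 0.405 to 1.56 ± 0.0564 CPM, -0.66). In shEGFR-NLS RASA1 fell by 0.45. The median of the list was -0.23, 0.12 and 0.39 in the 3 comparisons, the last for a list of which 6 of 10 were called.

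Of 10 genes that attach RAS to membranes or remove it from them, 3 fell with ERL, including LZTR1 (-0.64), an adaptor for RAS ubiquitination, and LYPLA2 (-0.44), a thioesterase. ZDHHC9 (-0.57) and GOLGA7 (-0.23), which together form a RAS palmitoyltransferase, were the 2 that fell in shEGFR-NLS. With cSNX edgeR called 0 of the 10, where 6.07% of all genes were called. At an unadjusted p under 0.05 edgeR gave 2 and DESeq2 called 1, for which the shares of all genes are not given here. With ERL and in shEGFR-NLS the called shares were 30% and 20%, both below the 44% and 41.4% of all genes, and no test of that difference was run. The medians were -0.01, 0.09 and -0.12.

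Of 11 related RAS-family GTPases tested, 2 rose and 2 fell with ERL, 1 fell with cSNX, and 1 rose and 4 fell in shEGFR-NLS. The shares of 36.4%, 9.09% and 45.5% were near the 44%, 6.07% and 41.4% called among all genes. MRAS, whose product acts with SHOC2 on RAF, was called in all 3 comparisons. It had 20.9 ± 1.10 CPM with EGF, 32.4 ± 0.707 with ERL (log2 fold change 0.64) and 14.3 ± 0.746 with cSNX (-0.54), and rose from 11.7 ± 0.867 CPM in shEGFR-WT to 18.8 ± 1.49 in shEGFR-NLS (0.68). RALB fell with ERL (-0.48) and RRAS in shEGFR-NLS (-0.61). The medians of the list were 0.10, 0.03 and -0.14.

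Of 24 scaffolds and regulators of RAF, 2 rose and 12 fell with ERL, with a median of -0.41 beside 0.01 over all genes. That is 58.3% of the list called, beside 44% of all genes. The chaperones HSP90AB1 (from 2768 ± 274 to 1595 ± 51.3 CPM, log2 fold change -0.78) and HSP90AA1 (from 1394 ± 51.2 to 826 ± 79.0 CPM, -0.75) fell most. Both have near-identical copies elsewhere in the genome, so how their reads were shared out is uncertain. With cSNX 1 rose (YWHAH, a 14-3-3 protein, 0.32) and 1 fell (ARRB1, an arrestin, -0.42), or 8.33% beside 6.07% of all genes, and the median was 0.07. In shEGFR-NLS 5 rose and 8 fell (54.2% beside 41.4%), with a median of -0.11, and the scaffold genes CNKSR3 (1.04) and CNKSR2 (-0.82) changed in opposite directions.

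Downstream of ERK, 10 genes for kinases and factors that ERK phosphorylates were tested. With ERL 1 rose (RPS6KA5, 0.64) and 5 fell, the largest fall being that of RPS6KA4 (from 165 ± 12.5 to 99.7 ± 15.7 CPM, log2 fold change -0.72). With cSNX 4 rose and 0 fell, including ELK3 (0.48), an ETS factor, and MKNK2 (0.48), a kinase of the translation factor eIF4E, and in shEGFR-NLS 1 rose and 3 fell, including RPS6KA3 (-0.41) and RPS6KA4 (-0.40). The called shares were 60%, 40% and 40%, beside 44%, 6.07% and 41.4% of all genes, and the medians were -0.23, 0.24 and 0.00. Of 13 genes of the parallel MAP kinase cascades, 3 rose and 5 fell with ERL, 1 rose with cSNX (MAP2K3, 0.36), and 4 rose and 3 fell in shEGFR-NLS, with medians of 0.02, 0.00 and 0.02. Their called shares of 61.5%, 7.69% and 53.8% stand beside 44%, 6.07% and 41.4% of all genes. MAP2K6, which activates p38 kinases, rose with ERL (0.86) and in shEGFR-NLS (1.02), MAP2K5 rose with ERL (0.63), and MAPK10 fell in shEGFR-NLS (-0.91).

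Of the 10 transcripts listed as ERK output, 10 fell with ERL (100% beside 44% of all genes), with log2 fold changes from -5.0 to -0.27 and a median of -2.75. ERK activity itself was not measured in these libraries. SPRY4, an inhibitor of receptor signalling, went from 7.56 ± 1.38 to 0.232 ± 0.140 CPM, and DUSP6, an ERK phosphatase, from 12.8 ± 0.902 to 0.416 ± 0.173 CPM (log2 fold change -4.89). With cSNX 3 rose, including PHLDA1 (0.88) and DUSP6 (0.65), and the median was 0.37 (30% called beside 6.07% of all genes). In shEGFR-NLS 3 rose and 3 fell, including CCND1 (-0.92) and DUSP4 (-0.82), and the median was -0.11 (60% called beside 41.4%). Because ERL and cSNX share the EGF libraries, and this list was chosen with results of these data known, these counts are descriptions.

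**Figure D4:**
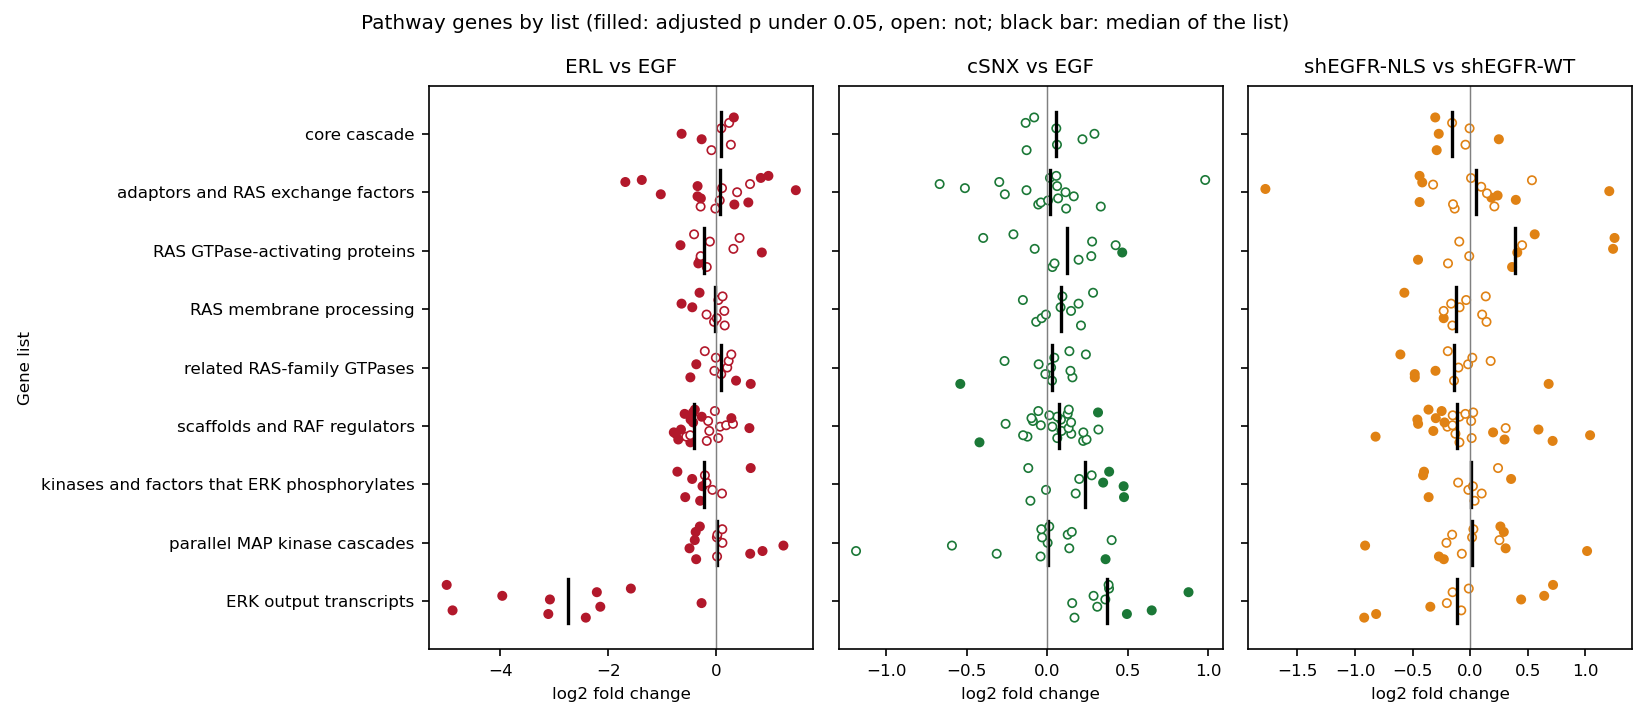
Log2 fold change of each tested gene by list in 3 comparisons, on axes with different ranges. Filled points had an adjusted p under 0.05 and black bars are the medians of the lists. With ERL the median was -2.75 for the ERK output transcripts and 0.10 for the core cascade. The list of ERK output transcripts was chosen with results of these data known.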

How the data were processed

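By the study's methods, the authors trimmed reads with TrimGalore, aligned them to GRCh38 with STAR and counted read pairs with featureCounts without regard to strand. The deposited values are raw counts for 61552 Ensembl genes in 15 libraries, with totals of 22915676 to 35900649. Of the IDs, 61399 matched GENCODE 44 and 153 did not. The authors' annotation release is not given in the sources used here.

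Counts were tested with edgeR 4.0.16 in R 4.3.3 (TMM, filterByExpr, robust quasi-likelihood test, Benjamini-Hochberg adjustment over all genes tested, threshold 0.05), fitted to the 9 drug libraries, the 6 line libraries or, for interactions, all 15, and checked on simulated data. Ratios of paralogues had exact two-sided permutation tests.

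The cascade genes, lists and tests were chosen with earlier results of these data known. Genes named are the 7, EGFR, overlapping genes and pseudogenes, the 2 genes of at least 1 CPM most correlated with each of the 7 (log2 CPM, prior count 2), and the 2 largest calls per list at a mean of at least 1 CPM. A shared sequence and some genes of the lists are not reported here. Alternatives were DESeq2 1.42.0, its size factors, no filter, at least 10 counts in every library, only 2 groups or all 15 libraries, a block for the replicate number, a threshold of 0.01 and removal of each replicate. Canonical lengths were added after seeing the data.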

Additional observations from a re-analysis of the deposited data

Results flagged for a closer look

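For 5 results, the shEGFR-NLS effect and a drug effect on the same gene differed by an interaction test. For MAP2K1 the shEGFR-NLS effect minus the cSNX effect was -0.56 on the log2 scale (edgeR's Benjamini-Hochberg adjusted p = 0.000787), and the adjusted p ran from 0.000275 to 0.00397 over 12 fits with a single library removed. For the shEGFR-NLS effect minus the ERL effect, the values were -0.62 for NRAS, 0.53 for HRAS, 0.38 for MAP2K1 and -0.39 for MAPK3. The MAPK3 call was lost in 7 of 12 fits with a single library removed, and those of NRAS, HRAS and MAP2K1 held in all 12. Of all genes, 23.1% were called when the cSNX effect was subtracted and 44.7% when the ERL effect was. These effects come from experiments made apart, so a difference between the experiments and one between the mutation and the drug cannot be told apart. Mutation and line also coincide. The mutation therefore cannot be told apart from other differences between the lines, such as that in EGFR level (log2 fold change 0.37). Groups of 3 libraries are too small for a test of single outlying libraries.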

How the results depend on the processing

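At an adjusted p under 0.01, 1 of the 7 genes was called in ERL vs EGF. At that threshold the genes called numbered 470 in cSNX vs EGF and 2359 for the shEGFR-NLS effect minus the cSNX effect. Over the 8 alternatives, 4789 to 7718 of all genes were called in ERL vs EGF. In cSNX vs EGF, 1 of the 7 was called with DESeq2 and in a fit of all 15 libraries, where 1444 of all genes were called. Leaving out 1 library gave 1 to 3 of the 7 in ERL vs EGF, where 5661 to 7453 of all genes were called. In cSNX vs EGF it gave 0 to 1 of the 7, where 526 to 1039 of all genes were called. The latter number was 531 when EGF replicate 1 was removed, 592 for EGF replicate 3 and 526 for cSNX replicate 2. Without 1 library each, the exact permutation test of the ratios of paralogues cannot go below 0.2. All differences of these ratios kept their direction.

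Signs turned only for log2 values that were not called. With 1 library left out at a time, the cSNX vs EGF value ran from -0.201 to 0.0213 for NRAS, from -0.00987 to 0.158 for BRAF and from -0.0416 to 0.152 for MAP2K2, and the cSNX vs ERL value from -0.117 to 0.0382 for ARAF and from -0.149 to 0.0376 for MAP2K2. MAP2K2 in shEGFR-NLS vs shEGFR-WT ran from -0.0658 to 0.0832, and was 0.00115 with at least 10 counts in every library. The shEGFR-NLS effect minus the cSNX effect ran from -0.0331 to 0.136 for HRAS, from -0.143 to 0.0457 for MAP2K2 and from -0.0981 to 0.0593 for MAPK3. The cause was not tested.

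Same-numbered libraries did not all deviate together. The correlation of their deviations from the group means was between -0.20 and 0.25 over 9 pairs in the drug experiment and between -0.10 and -0.03 over 3 pairs of the lines, and 3 of 9 and 0 of 6 libraries correlated best with their own number, so the number was not taken as a pairing. With the replicate block the calls among the 7 were 3, 0 and 4 in ERL vs EGF, cSNX vs EGF and shEGFR-NLS vs shEGFR-WT, as without it, and the genes called were 6707, 841 and 5766.

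Standard errors of the 7 genes in these 3 comparisons ran from 0.07 to 0.13 on the log2 scale. The calls of HRAS in both comparisons and of NRAS with ERL depended on single libraries, while the NRAS call in shEGFR-NLS held in all 7 alternatives and all 6 fits that left out 1 library.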
